A study of Mus musculus with 28 samples.

Results

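The Dlk1-Dio3 cluster is an imprinted domain of mouse chromosome 12 that carries a large group of miRNA genes. In the table of 569 miRNAs measured here, 32 belonged to it. They were taken by name, as every row whose miRNA number is that of a cluster hairpin and that held a value in cartilage or in subchondral bone. Of the 32, 30 had values in cartilage, 8 in bone and 6 in both. The 2 with values in bone alone were miR-412-3p and miR-539-5p.

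The study asked how miRNAs differ in joint tissue as osteoarthritis starts and progresses. Male C57BL6 mice aged 10 to 12 weeks had both knees operated on. In destabilization of the medial meniscus (DMM) the ligament that holds the medial meniscus to the tibia is cut, which leaves the joint unstable; in the sham operation that ligament was exposed and left whole. Cartilage and the subchondral bone beneath it were cut from the medial tibial plateau by laser 1 or 6 weeks later, and 70 ng of total RNA was hybridised to each single-colour Agilent mouse miRNA array. Tissue, operation and week together define 8 groups of the 28 arrays. In cartilage there were 3 arrays in every group, and 1 array carried RNA of 3 pooled mice. In bone there were 4 arrays in every group, 1 mouse to an array. Bone arrays were labelled wild type with a mouse number, and cartilage arrays with a number only. One label field named bone for the cartilage arrays too, and the source field was followed. miR-140-3p, a miRNA abundant in cartilage, had a mean of 13.4 ± 0.189 (SD, n = 12) on the log2 scale where cartilage was assigned in this way and 9.34 ± 0.325 (SD, n = 16) where bone was. Values in the table ran from 4.08 to 16.7 on the log2 scale, and array medians from 6.26 to 6.32 in cartilage and from 6.17 to 6.39 in bone.

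In an imprinted domain the maternal and the paternal chromosome are used differently. At this one, Dlk1, Rtl1 and Dio3 are expressed from the paternal chromosome, and the long noncoding RNAs Meg3, Rian and Mirg, with the miRNAs, from the maternal one. The miRNAs are thought to be cut from long shared transcripts, so that many hairpins can arise from one precursor. Each hairpin can give a mature miRNA from its 5′ side (5p) and one from its 3′ side (3p), and bases 2 to 8 of the mature miRNA, the seed, pair with target mRNAs. The cluster is expressed strongly in the embryo, placenta and brain.

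The 32 miRNAs came from 27 hairpins, of the 50 that carry such a number on chromosome 12 in RefSeq (GRCm38.p6). They comprised 13 of 5p and 19 of 3p arms. The hairpins spanned 184 kb downstream of the start of Meg3, and all but that of miR-299b, which is on the minus strand, were on the plus strand. By annotated position they fell into 3 stretches. Within Meg3 or Rian lay 3 members, miR-770-3p, miR-341-3p and miR-370-3p. Opposite the protein-coding gene Rtl1, in its annotated span (chr12:109564900-109604418), lay 6 members, from the hairpins miR-337, miR-127, miR-434 and miR-136. The other 23 lay downstream of Rian, from miR-379 (chr12:109709060-109709125) to miR-3072 (chr12:109747878-109747960), and the last of these hairpins were inside Mirg. A mature sequence in RefSeq matched 30 of the 32 members by name.

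Among the members, one seed was shared, by miR-379-3p and miR-411-3p, which come from neighbouring hairpins. They are shown with the 5p arms of the same hairpins, the seed in capitals, because both arms of both hairpins were measured in cartilage.
miR-379-3p: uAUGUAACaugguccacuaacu
miR-411-3p: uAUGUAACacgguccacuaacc
miR-379-5p: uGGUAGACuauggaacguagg
miR-411-5p: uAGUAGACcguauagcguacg
Both 3p arms are 22 bases long and identical at 20, with the differences U10C and U22C counted from the 5′ end of miR-379-3p, so one probe may bind the other miRNA and their values may not be independent. Outside the cluster, miR-362-3p shares the seed ACACACC of miR-329-3p, but it had no value in cartilage.

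The next sequences, again with the seed in capitals, are those of further members that were lower after DMM at both weeks in cartilage, for which the values follow.
miR-136-5p: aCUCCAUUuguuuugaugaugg
miR-299b-5p: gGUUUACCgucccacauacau
miR-329-3p: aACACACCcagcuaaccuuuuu
miR-376b-5p: gUGGAUAUuccuucuaugguua
miR-377-3p: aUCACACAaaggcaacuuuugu
For contrast, the following are the 4 members of highest GC share among those with a sequence. Their difference after DMM did not pass the threshold at either week.
miR-770-3p: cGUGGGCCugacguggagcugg
miR-341-3p: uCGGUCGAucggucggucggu
miR-370-3p: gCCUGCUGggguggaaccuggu
miR-3072-5p: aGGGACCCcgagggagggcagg
The GC share was 72.7%, 66.7%, 68.2% and 77.3% in these 4, against 36.4% in miR-136-5p, miR-376b-5p and miR-377-3p, 40.9% in miR-329-3p and 47.6% in miR-299b-5p. GC share did not part the members cleanly. Among others that passed at neither week, miR-410-3p held 38.1% and miR-541-5p 44.0%. miR-337-5p, which passed at 1 week, held 54.5%.

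In cartilage 1 week after surgery, 14 of the 30 members were lower in DMM than in sham at an adjusted p under 0.05, and 0 were higher. Over all 438 miRNAs tested in cartilage, 12.1% were called lower, 15.8% higher and 27.9% in either direction, by limma with Benjamini-Hochberg adjustment. The fitted difference was below 0 for 27 of the 30 members, with a median of -0.39 on the log2 scale, beside a median of -0.02 over all miRNAs. The differences that passed ran from -0.58 to -0.39, or to between 0.671 and 0.764 times the sham level. In bulk tissue such as this, fewer cells that hold a miRNA and less of it in each cell cannot be told apart.

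miR-379-3p, from the first hairpin of the stretch downstream of Rian, had the smallest p of the members at 1 week. Its log2 signal was 5.68, 5.82 and 5.83 in the sham pools and 5.19, 5.37 and 5.19 in the DMM pools. All DMM pools lay below all sham pools, and the difference was -0.53 ± 0.11 (SE), with a limma adjusted p of 0.00507. miR-411-3p, the member with the same seed, read 6.11, 6.01 and 6.29 in sham and 5.51, 5.78 and 5.40 in DMM. The groups again did not overlap, and the difference was -0.58 ± 0.14 (SE), with a limma adjusted p of 0.0124.

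miR-376b-5p belongs to the miR-376 family, whose precursors are known for editing of adenosine to inosine. Its signal was 5.92, 5.74 and 5.97 in sham and 5.49, 5.37 and 5.35 in DMM at 1 week, a difference of -0.47 ± 0.11 (SE), with a limma adjusted p of 0.0105. Its neighbour miR-376c-3p read 5.93, 5.98 and 6.21 in sham and 5.57, 5.63 and 5.33 in DMM, a difference of -0.53 ± 0.12 (SE) with a limma adjusted p of 0.0101. Each kept the operations apart, with every DMM pool under every sham pool. miR-495-3p, which lies between them and miR-494, read 5.95, 6.00 and 6.14 in sham and 5.60, 5.74 and 5.51 in DMM, and its difference of -0.41 passed as well.

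The hairpin of miR-299b-5p is annotated on the other strand, near the start of that stretch. From which strand the signal came was not tested. miR-299b-5p read 7.58, 7.70 and 7.74 in sham and 7.06, 7.38 and 6.97 in DMM at 1 week, a difference of -0.53 ± 0.15 (SE) with a limma adjusted p of 0.0204. miR-329-3p read 7.27, 7.32 and 7.48 in sham and 6.80, 7.09 and 6.84 in DMM, a difference of -0.45. miR-377-3p, from within Mirg, read 5.93, 5.85 and 6.17 in sham and 5.66, 5.52 and 5.41 in DMM, a difference of -0.46. In all 3 the DMM pools lay below the sham pools.

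The stretch opposite Rtl1 holds miR-127, miR-434 and miR-136, of miRNAs fully complementary to the Rtl1 mRNA, which they are known to cleave. The miR-337 arms are counted with them by position in the annotated Rtl1 span alone. Of the 6 members in the stretch, 4 were lower at 1 week. miR-136-5p read 6.23, 6.22 and 6.51 in sham and 6.08, 5.87 and 5.84 in DMM, a difference of -0.39 ± 0.11 (SE) with a limma adjusted p of 0.0237. Both arms of miR-337 passed, with differences of -0.46 for miR-337-5p and -0.39 for miR-337-3p, and so did miR-434-5p, with -0.42. miR-434-3p had a difference of -0.43 with a limma adjusted p of 0.0658, and miR-127-3p one of -0.20 with 0.374, so neither passed. miR-127-3p read 8.94, 9.05 and 9.09 in sham and 8.77, 9.06 and 8.64 in DMM, and its groups overlapped.

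**Figure D1:**
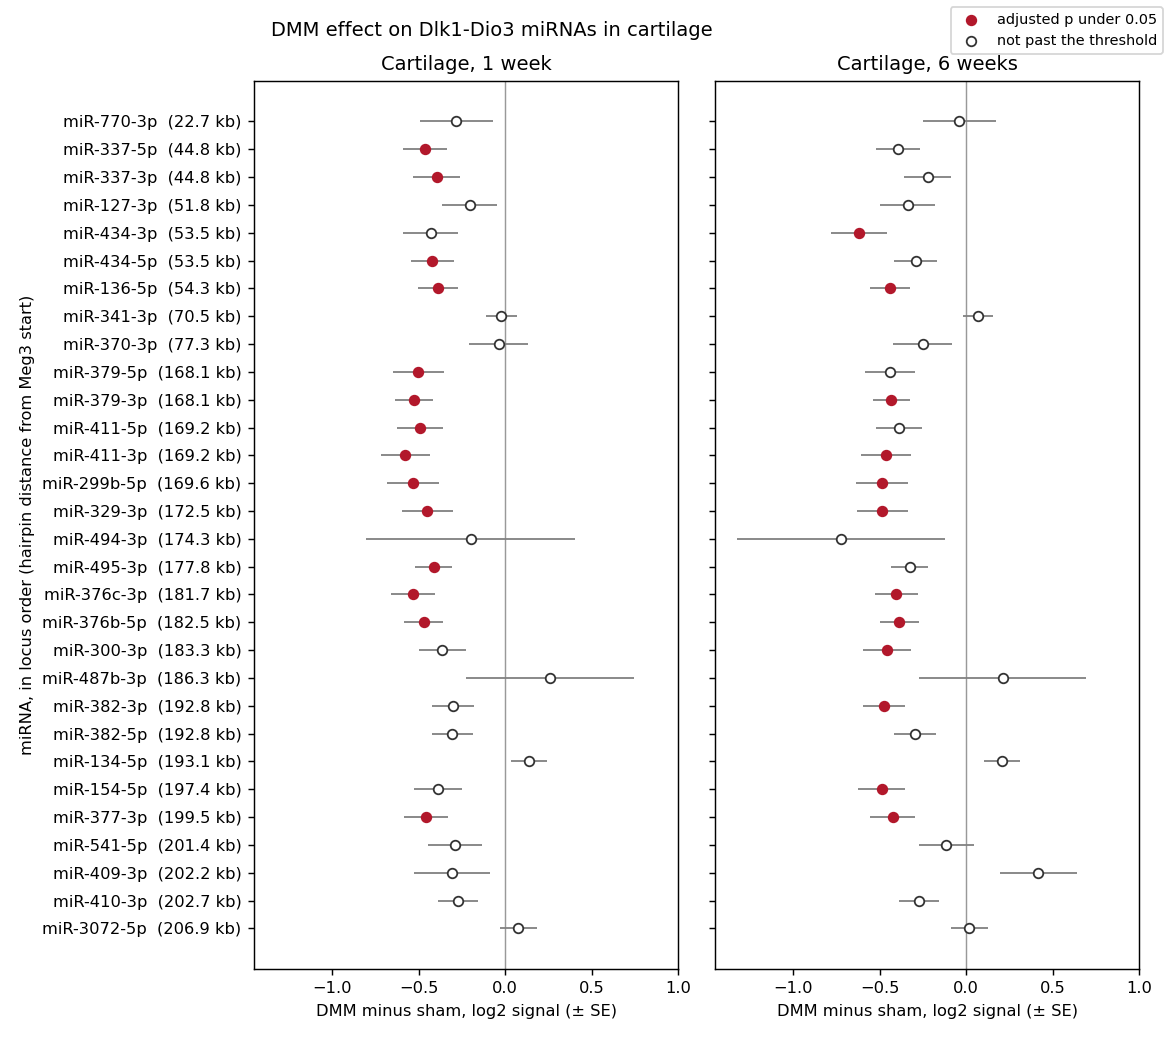
Difference of DMM minus sham (log2 signal ± SE) in cartilage at 1 week (left) and 6 weeks (right) for the 30 members, in the order of their hairpins with the distance from the start of Meg3 in kb; filled points passed an adjusted p of 0.05. Most points lie left of 0 at both weeks, 27 of 30 and 25 of 30, and miR-134-5p, miR-487b-3p and miR-3072-5p lie right of it at both.

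At 6 weeks 12 of the 30 members were lower in DMM cartilage and 0 were higher, where 7.31% of all cartilage miRNAs were called lower, 9.59% higher and 16.9% in either direction. The difference was below 0 for 25 members, and the median was -0.39, beside -0.04 over all miRNAs. The 12 differences ran from -0.62 to -0.39. miR-434-3p, opposite Rtl1, read 7.60, 7.95 and 7.72 in sham and 7.33, 6.81 and 7.27 in DMM, a difference of -0.62 ± 0.16 (SE) with a limma adjusted p of 0.022. The DMM pools lay below the sham pools, with 1 DMM pool well under the rest.

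miR-379-3p read 5.78, 5.89 and 5.82 in sham and 5.45, 5.21 and 5.53 in DMM at 6 weeks, a difference of -0.43 ± 0.11 (SE) with a limma adjusted p of 0.0183. miR-136-5p read 6.31, 6.48 and 6.39 in sham and 5.95, 5.85 and 6.06 in DMM, a difference of -0.44 ± 0.11 (SE) with a limma adjusted p of 0.022. miR-382-3p read 5.62, 5.95 and 5.94 in sham and 5.32, 5.39 and 5.38 in DMM, a difference of -0.47 ± 0.12 (SE) with a limma adjusted p of 0.0214. In these 3 the groups did not overlap, and the 3 DMM values of miR-382-3p were close together.

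miR-154-5p, from within Mirg, read 7.54, 7.57 and 7.19 in sham and 7.00, 6.72 and 7.10 in DMM at 6 weeks, a difference of -0.49 ± 0.14 (SE) with a limma adjusted p of 0.032. miR-376b-5p read 5.78, 5.82 and 5.79 in sham and 5.46, 5.19 and 5.58 in DMM, a difference of -0.39 with a limma adjusted p of 0.0376. Its sham pools were nearly alike, and all DMM pools were below them. miR-300-3p (-0.46), miR-377-3p (-0.43), miR-329-3p (-0.49), miR-376c-3p (-0.40), miR-411-3p (-0.46) and miR-299b-5p (-0.48) also passed, with limma adjusted p from 0.0414 to 0.0464.

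**Figure D2:**
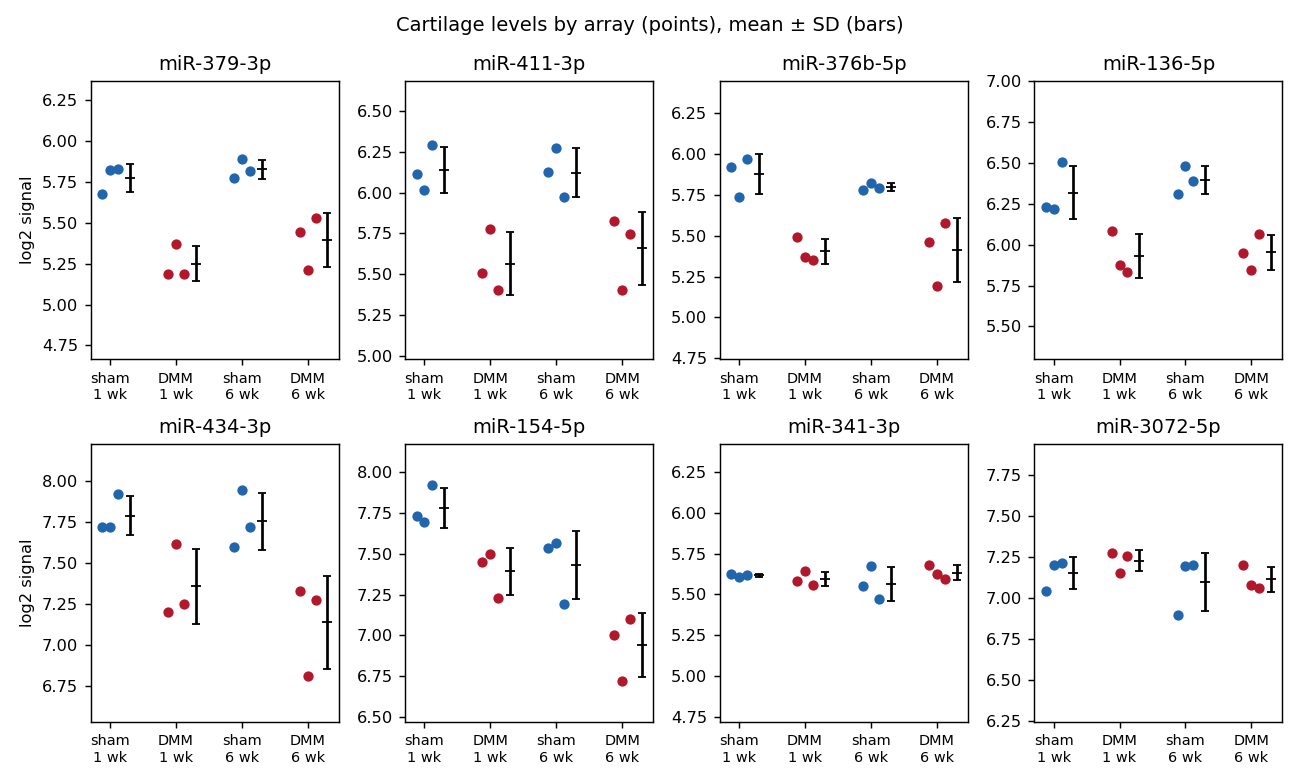
Log2 signal of 8 members on each cartilage array (points; sham blue, DMM red), with mean ± SD of the 3 arrays of a group (bars); every panel spans the same height of log2 signal. For miR-379-3p, miR-411-3p, miR-376b-5p, miR-136-5p, miR-434-3p and miR-154-5p every DMM pool lies below every sham pool of its week, and for miR-341-3p and miR-3072-5p the groups overlap.

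The calls at the 2 weeks had 8 members in common, miR-136-5p, miR-299b-5p, miR-329-3p, miR-376b-5p, miR-376c-3p, miR-377-3p, miR-379-3p and miR-411-3p. They made up 57.1% of the calls at 1 week and 66.7% of those at 6 weeks, and 3.65% of all cartilage miRNAs were called lower at both. The weeks used different mice and different sham pools. Their tests took the spread of each miRNA from a shared fit of the 12 cartilage arrays, so the calls at the 2 weeks are not independent. With only the 2 compared groups in the fit, 16 members passed by limma at 1 week and 0 at 6 weeks. Of all 438 miRNAs, 66 and 5 were then called lower. Most calls were of members at low levels. Of the 19 members under the median level of cartilage miRNAs, 11 were lower at 1 week and 8 at 6 weeks. Over all miRNAs under that level it was 13.7% and 7.31%. Of the 11 members at or above it, 3 and 4 were lower, beside 12.1% and 7.31% of cartilage miRNAs of any level. Of the 53 and 32 cartilage miRNAs called lower at 1 and 6 weeks, 30 and 16 were under the median level. In 18 members all DMM pools lay below all sham pools at both weeks, and so they did in 12.8% of all cartilage miRNAs. At 1 week alone 19 members were separated in that direction, beside 23.3% of all miRNAs, and 0 in the other, beside 24.9%. At 6 weeks 19 were separated downward, beside 18%, and 2 upward, beside 17.4%. Those 2 were miR-134-5p and miR-409-3p, and neither passed the test. The DMM difference did not change detectably between the weeks. The change passed for 0 of the 30 members and 0% of all miRNAs by limma, with 1 member and 13 miRNAs at an unadjusted p under 0.05. That member was miR-409-3p, with a difference of -0.31 at 1 week and 0.42 at 6 weeks, a change of 0.72 ± 0.31 (SE) and an adjusted p of 0.999.

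The count of calls rested on single pools. By limma, 1 of 30 members passed at 1 week without sham pool 3 and 1 without DMM pool 3, where 10 and 8 of all 438 miRNAs were called lower in place of 53. In the other 4 such fits, which left out sham pool 1 or 2 or DMM pool 1 or 2, 11 or 12 passed, beside 35 to 56 of all 438 miRNAs called lower. At 6 weeks, 0 passed without sham pool 2 and 0 without DMM pool 2, although 15 and 12 members had an unadjusted p under 0.05. In each of those fits 4 of all 438 miRNAs were called lower in place of 32, so calls were lost among the other miRNAs too. Without sham pool 3, 2 passed, without DMM pool 1, 3, without DMM pool 3, 12, and without sham pool 1, 16. Of all 438 miRNAs, 9, 11, 44 and 88 were called lower in those 4 fits, in that order. The median difference of the members stayed below 0 in all 12 of these fits, from -0.44 to -0.33 at 1 week and from -0.42 to -0.27 at 6 weeks. miR-379-3p at 1 week passed in all 6 fits that left out a pool. Over all 13 alternatives that could be fitted for it the adjusted p ran from 0.00248 to 0.961, and the alternative in which it did not pass had an array score as a covariate.

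The same direction was seen on each array as a whole. The median of the 30 members minus the median of all miRNAs of the array was -0.02, -0.04 and 0.07 in the sham pools at 1 week and -0.32, -0.38 and -0.55 in the DMM pools. At 6 weeks it was -0.10, -0.04 and -0.21 in sham and -0.38, -0.49 and -0.35 in DMM. No DMM pool reached the lowest sham pool of its week. The sham pool and the DMM pool without which 1 member passed at 1 week were the highest sham and the lowest DMM pool there. Scaling did not turn the direction. With quantile normalization the median difference of the members was -0.41 and -0.34 at 1 and 6 weeks, with 17 and 8 members called lower, and 7 of the 12 calls at 6 weeks were kept. Of all 438 miRNAs, 75 and 30 were then called lower. With centring on the 75th percentile of each array the median difference of the members was -0.48 and -0.43. With that centring, 20 members and 86 of all miRNAs were called lower at 1 week and 0 members and 56 miRNAs higher, where the deposited scale gave 53 lower and 69 higher.

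**Figure D3:**
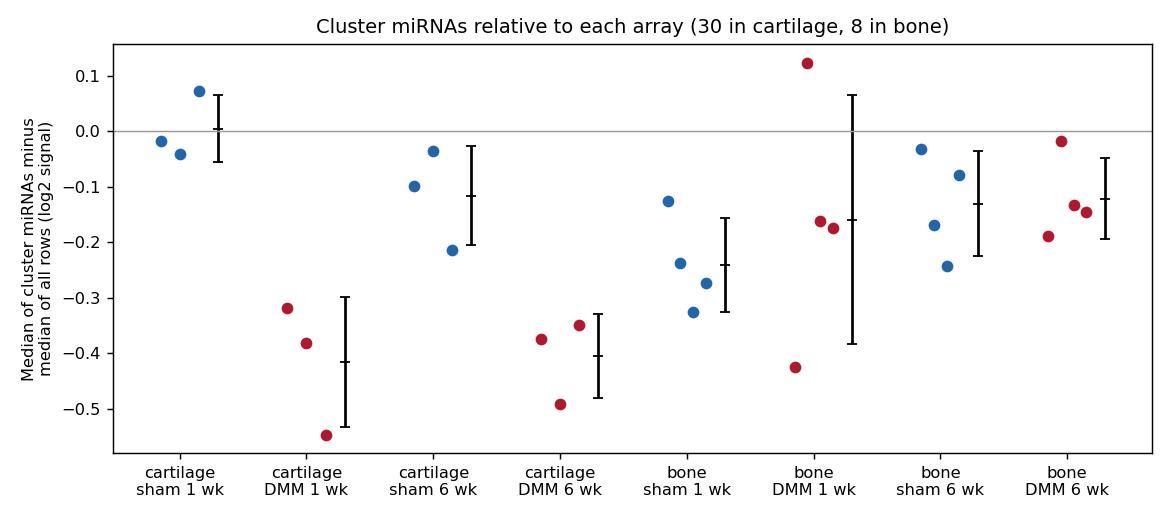
Median of the members minus median of all miRNAs on each of the 28 arrays (points; sham blue, DMM red) by group, with mean ± SD (bars), for 30 members in cartilage and 8 in bone. In cartilage the DMM pools lie at -0.32 and below and the sham pools at -0.21 and above, and in bone the groups overlap.

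By stretch, 0 of the 3 members within Meg3 or Rian passed at either week, a count too small to set against the 12.1% and 7.31% of all miRNAs called lower, with medians of -0.04 and -0.04. miR-341-3p read 5.63, 5.60 and 5.62 in sham and 5.58, 5.65 and 5.56 in DMM at 1 week, and its difference was -0.02 ± 0.09 (SE). Of the 6 members opposite Rtl1, 4 and 2 were lower at 1 and 6 weeks, and of the 21 downstream of Rian, 10 and 10, beside the same shares. In that last stretch miR-134-5p, known in neurons for repressing Limk1 at dendritic spines, had differences of 0.14 and 0.21. miR-487b-3p varied widely between pools of one group, from 6.34 to 7.87 in sham at 1 week, and so did miR-494-3p, from 8.87 to 11.1 in sham at 6 weeks. Their pooled SDs of 0.717 and 0.895 were the largest of the members, and a difference like that of miR-379-3p was within their spread. The difference between stretches was not tested.

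By arm, 7 of 12 measured 5p members and 7 of 18 3p members were lower at 1 week, beside 15.6% and 12.2% of all 5p and 3p miRNAs. At 6 weeks 4 of 12 and 8 of 18 were lower, beside 7.58% and 10.1%. For 5 hairpins both arms were measured in cartilage. Those of miR-337 had differences of -0.46 (5p) and -0.39 (3p) at 1 week and of -0.39 and -0.22 at 6 weeks. Those of miR-379 had -0.50 and -0.53, then -0.44 and -0.43. For miR-411 they were -0.49 and -0.58, then -0.39 and -0.46. For miR-434 they were -0.42 and -0.43, then -0.29 and -0.62. For miR-382 they were -0.30 and -0.30, then -0.30 and -0.47. All 20 of these differences were below 0. At 1 week both arms of miR-337, miR-379 and miR-411 passed, miR-434 passed in its 5p arm and miR-382 in neither. At 6 weeks the 3p arms of miR-379, miR-382, miR-411 and miR-434 passed and no 5p arm did. The 5p arms of miR-337, miR-379 and miR-411 were just over the threshold, with limma adjusted p of 0.054, 0.0555 and 0.0568. Those of miR-382 and miR-434 had 0.0884 and 0.105. Whether the arms differed was not tested.

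Base composition moved with the result. Among all cartilage miRNAs with a RefSeq sequence, 28.6% of those under 50% GC were called lower at 1 week and 3.78% of the others. Of the 16 members under 50% GC, 11 were lower at 1 week and 9 at 6 weeks, and of the 12 with more, 2 and 2. At 6 weeks the shares over all miRNAs were 17.5% and 2.1%. These shares include the members, which supplied 11 of the 36 calls lower under 50% GC at 1 week and 9 of the 22 at 6 weeks. After the linear relation to GC over 364 miRNAs was taken off, the median of the 28 members with a sequence was -0.33 at 1 week and -0.28 at 6 weeks, from -0.39 and -0.39 before. The part of base composition in single calls was not tested.

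**Figure D4:**
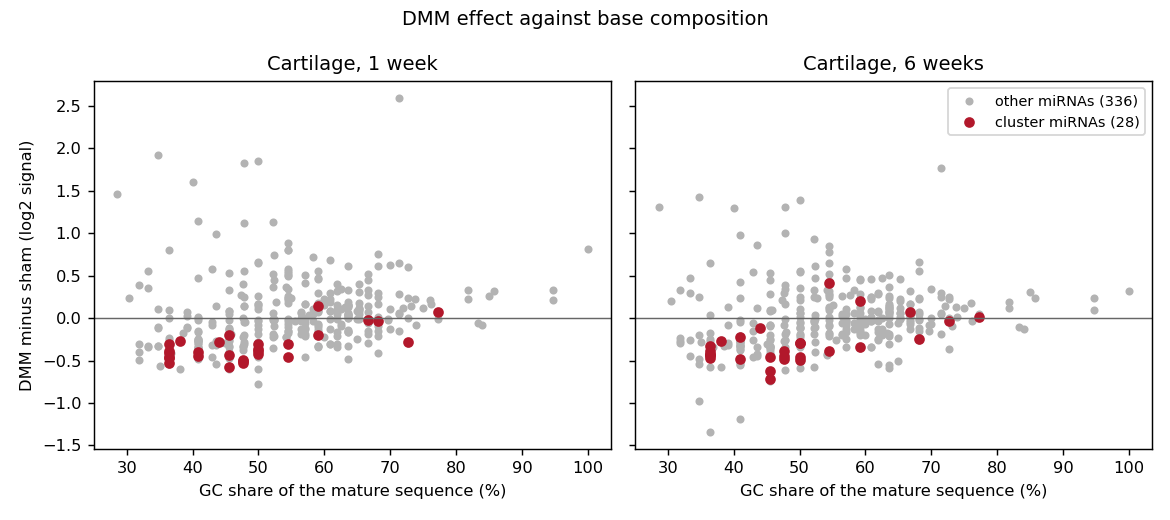
Difference of DMM minus sham in cartilage (log2 signal) against the GC share of the mature sequence in percent, at 1 week (left) and 6 weeks (right), for 28 members (red) and 336 other miRNAs (grey). The members under 50% GC all lie below 0 at both weeks, and miR-3072-5p, at the highest GC, lies near 0.

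An array score also moved with the operation. It was the position of an array along the main axis on which bone arrays of the same group differed, computed without the members. In cartilage it ran from 0.99 to 1.65 in sham and from -4.26 to -2.51 in DMM at 1 week, and from 2.51 to 3.36 and from -1.78 to 1.11 at 6 weeks, with no overlap at either week. With the score as a covariate 0 members and 0 of all 438 miRNAs passed in limma at each week, with 0 and 1 members at an unadjusted p under 0.05, and the members' median was -0.19 and -0.22. What the score stands for was not tested.

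Markers of other cells moved at 6 weeks. In cartilage both measured erythroid miRNAs were lower in DMM at 6 weeks, with differences of -1.34 for miR-451a and -0.50 for miR-486a-5p. So were 2 of 3 leukocyte miRNAs, miR-223-3p (-1.19) and miR-342-3p (-0.57). The log2 of the summed erythroid signal was 8.50 to 10.2 in sham and 7.75 to 8.55 in DMM, and of the leukocyte signal 8.64 to 9.79 and 8.00 to 8.52. At 1 week 0 of these 5 passed, and the sums overlapped, with 7.41 to 8.27 against 7.58 to 7.99 and 8.27 to 8.78 against 8.21 to 8.69. Of 4 cartilage-enriched miRNAs, miR-455-5p alone was lower, at 1 week (-0.40), and of 5 mesenchymal miRNAs 0 were lower at either week and miR-214-5p was higher at 1 week (0.53). The cartilage sum was 13.9 to 14.2 in sham and 13.7 to 14.0 in DMM at 1 week, and 14.0 to 14.1 and 13.6 to 13.9 at 6 weeks. Of 4 muscle miRNAs, miR-206-3p was higher at both weeks and the others did not pass, and the endothelial miR-126a-3p did not pass at either. The mesenchymal sum was 11.2 to 11.4 in sham and 10.8 to 11.3 in DMM at 1 week, and 11.3 to 11.5 and 10.5 to 11.2 at 6 weeks. The epithelial miR-200 family, miR-144 and miR-150 had no values in cartilage. The part of other cells in the members' values was not tested.

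The members also varied together between pools of one group. Over deviations from group means on the 12 cartilage arrays, the 435 pairs of members had a median correlation of 0.502, beside -0.01 over all pairs of miRNAs, and the 276 pairs of the 24 members with values in cartilage alone had 0.682. These pairs share arrays, pools and, in part, base composition. In the 16 bone arrays the 28 pairs of 8 members had a median of -0.24.

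The members called in cartilage were among those with no value in bone. Of the 24 members with values in cartilage alone, 14 were lower at 1 week and 12 at 6 weeks, beside 27.8% and 17.7% of the 79 such miRNAs. Those 79 include the 24 members, which supplied 14 of the 22 calls lower at 1 week and 12 of the 14 at 6 weeks. Of the 6 with values in both tissues, 0 passed at either week. Of the 359 such miRNAs, 31 were called lower and 67 higher at 1 week and 18 and 40 at 6 weeks, so 0 lower of 6 is near the shares called lower, 8.64% and 5.01%. The medians of these 6 were 0.02 and -0.01. The difference between the 24 and the 6 was not tested.

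In bone, 0 of the 8 members and 0% of the 490 miRNAs passed in limma between DMM and sham at either week, with 0 members and 3 and 2 miRNAs at an unadjusted p under 0.05. The median difference of the members was 0.00 at 1 week and 0.12 at 6 weeks, and they were below 0 in 4 and 2 of 8. For 0 of 8 members were the groups apart, beside 0.612% of all miRNAs separated downward and 0.816% upward at 1 week and 0.204% each way at 6 weeks. The SE of these differences was 0.18 to 0.84, so a difference of the size seen in cartilage was not detectable for most members there.

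miR-134-5p had the smallest p in bone at 1 week. It read 6.12, 5.71, 6.41 and 6.26 in sham and 5.99, 6.44, 6.78 and 6.50 in DMM, with a difference of 0.31 ± 0.23 (SE). miR-770-3p, from the Meg3 gene, read 6.27, 6.03, 5.62 and 5.77 in sham and 5.40, 6.78, 5.39 and 5.39 in DMM, with a difference of -0.18 ± 0.33 (SE). In both the groups overlapped, and 1 DMM mouse of miR-770-3p stood above the rest. The remaining 6 had differences from -0.23 for miR-494-3p to 0.05 for miR-487b-3p.

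miR-412-3p, measured in bone alone, had the smallest p at 6 weeks. It read 6.21, 4.40, 4.79 and 4.96 in sham and 5.92, 5.82, 5.80 and 4.36 in DMM, with a difference of 0.38 ± 0.35 (SE). miR-494-3p read 9.83, 12.4, 13.0 and 9.77 in sham and 9.90, 10.8, 13.1 and 12.8 in DMM, with a difference of 0.39 ± 0.84 (SE). Each group of miR-494-3p held both high and low mice. The array score was -9.75, -8.95, -7.03 and -2.06 in the mice that read 13.0, 13.1, 12.8 and 12.4, and 0.61 to 4.97 in the others. The split was less clear at 1 week. Mice that read 12.8 and 12.3 then had scores of -9.73 and 0.41, and mice with scores of 0.16 and 0.69 read 10.7 and 11.3. Whether the score bears on miR-494-3p was not tested. miR-487b-3p (0.18), miR-539-5p (0.10) and miR-770-3p (0.14) were the next by p, and the other 3 were within 0.07 of 0.

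**Figure D5:**
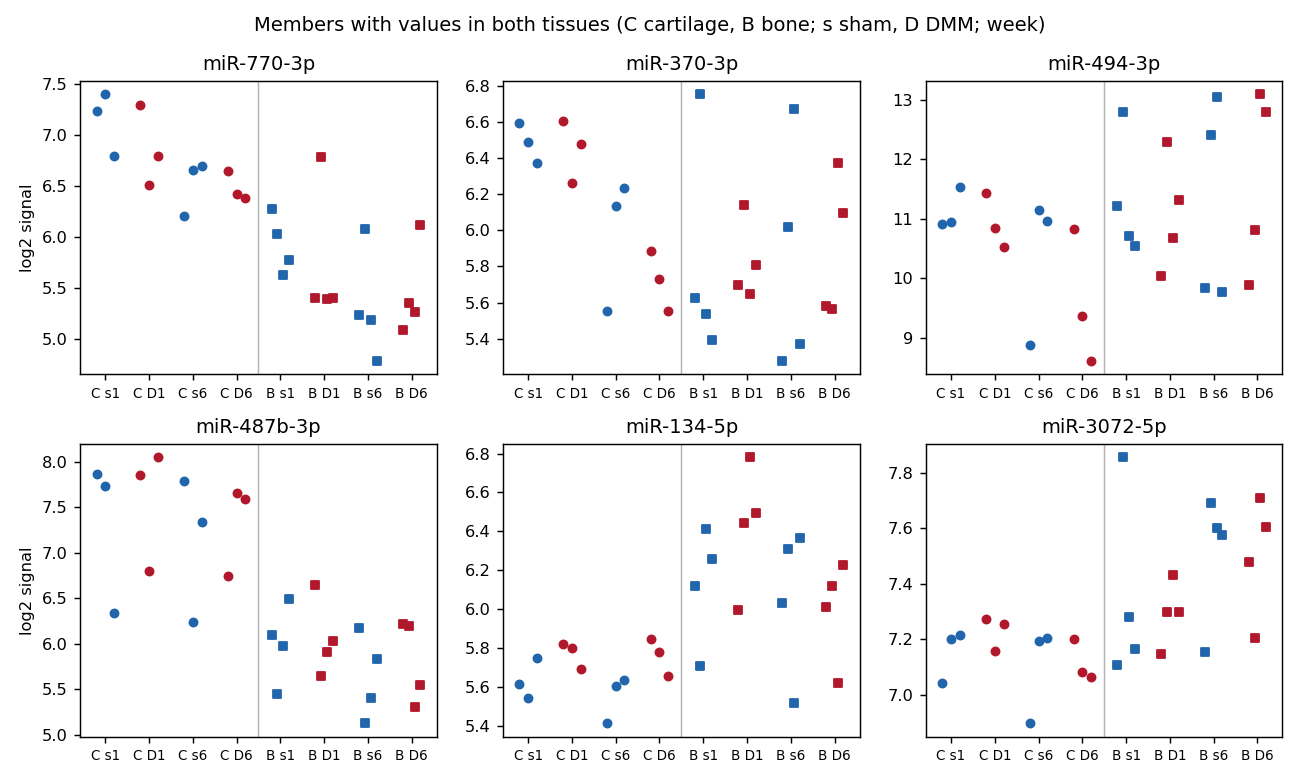
Log2 signal of the 6 members with values in both tissues on each array (circles cartilage, squares bone; sham blue, DMM red) by group. DMM and sham overlap in all panels but that of miR-134-5p in cartilage at 6 weeks, and each panel has its own scale.

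Levels of these 6 could be set side by side but not tested, since both tissues may have been normalized apart. miR-487b-3p had 7.33 ± 0.634 in cartilage (SD, n = 12) and 5.88 ± 0.433 in bone (SD, n = 16), and miR-770-3p 6.75 ± 0.378 and 5.61 ± 0.523. miR-494-3p had 10.5 ± 0.985 and 11.3 ± 1.23, miR-3072-5p 7.15 ± 0.109 and 7.41 ± 0.237, miR-134-5p 5.68 ± 0.128 and 6.15 ± 0.337, and miR-370-3p 6.16 ± 0.388 and 5.85 ± 0.453. The ranges over arrays of the tissues overlapped for all 6, as for miR-487b-3p, with 6.24 to 8.05 in cartilage and 5.12 to 6.64 in bone. Signals of different probes are not compared with each other. The difference of the DMM effect between cartilage and bone was tested for the 6 and passed for 0 of them at either week, with 0 at an unadjusted p under 0.05. Of all 359 shared miRNAs, 0.279% passed at 1 week and 0.557% at 6 weeks by limma. The largest for a member at 6 weeks was miR-494-3p, -1.11 ± 1.17 (SE).

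Between the weeks, 1 member passed. miR-370-3p, from the Rian gene, was lower at 6 weeks than at 1 week in DMM cartilage. It read 6.61, 6.26 and 6.48 at 1 week and 5.89, 5.73 and 5.55 at 6 weeks, with no overlap, a difference of -0.73 ± 0.17 (SE) and a limma adjusted p of 0.0316. Of all 438 miRNAs, 4.79% were called in that comparison, 2.51% lower and 2.28% higher. In 5 of the 6 fits that left out a pool, those without DMM pool 1, 2 or 3 at 1 week or without DMM pool 2 or 3 at 6 weeks, it did not pass, and the difference was -0.82 to -0.64 over all 14 alternatives. In sham cartilage the same miRNA read 6.59, 6.49 and 6.37 at 1 week and 5.55, 6.13 and 6.23 at 6 weeks, a difference of -0.51 ± 0.17 (SE) with a limma adjusted p of 0.175. miR-770-3p had -0.62 ± 0.21 (SE) there, with 0.181. In sham cartilage 0 members passed, beside 0.228% of all miRNAs, with 5 of 30 members and 77 of 438 miRNAs at an unadjusted p under 0.05, about the same share.

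In bone 0 members and 0% of all miRNAs passed between weeks in either operation by limma. At an unadjusted p under 0.05 there were 1 member and 54 miRNAs in sham and 1 member and 95 miRNAs in DMM. miR-539-5p, measured in bone alone, had the smallest p in both. In sham it read 5.76, 6.11, 5.83 and 5.97 at 1 week and 6.25, 6.09, 6.98 and 6.41 at 6 weeks, a difference of 0.51 ± 0.21 (SE) with a limma adjusted p of 0.414. In DMM it read 5.69, 5.92, 6.16 and 6.04 and then 6.12, 6.32, 6.79 and 6.89, a difference of 0.58 ± 0.21 (SE) with 0.212. The weeks overlapped in both. The change of the DMM effect between weeks passed for 0 of 8 members in bone by limma, with 0 members and 1 miRNA at an unadjusted p under 0.05, and had the smallest p for miR-134-5p, -0.37 ± 0.32 (SE).

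The promoter window of Meg3, at the head of the maternal transcripts, is shown from RefSeq (GRCm38.p6, chr12:109540746-109541045, plus strand, 250 bases before to 50 after the annotated start). The capitals mark TGACGTCA, the palindromic cyclic AMP response element, the one motif searched, which reads the same on both strands.
Meg3 promoter: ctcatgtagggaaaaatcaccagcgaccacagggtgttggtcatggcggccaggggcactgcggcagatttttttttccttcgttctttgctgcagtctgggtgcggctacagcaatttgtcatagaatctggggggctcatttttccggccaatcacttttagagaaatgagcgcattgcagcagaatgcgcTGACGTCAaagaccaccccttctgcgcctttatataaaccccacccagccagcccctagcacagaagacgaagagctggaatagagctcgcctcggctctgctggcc
The window holds 1 copy, from base 194, and 13 CpG sites. The same 8 letters occur in 588 of 32851 promoter windows of this length (1.79%). The match describes the sequence, and no factor or methylation was measured there. Its relation to the members' values was not tested.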

How the data were processed

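miRNA was measured on 28 single-colour Agilent arrays. The authors deposited 1 table, and the range of its values was read as log2 signal. It was not rescaled. Per the submitters' processing notes limma 3.20.9 had been used. Background correction, normalization and any filter on low rows: not given in the sources used here. Rows held values in 1 tissue or in both. Scanner background was not used here, so precision rests on the number of arrays and their spread. Of the value columns 0 were left unused.

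Group-means models were fitted per tissue with limma 3.58.1 in R 4.3.3 (labels read with jsonlite 2.0.0), over 438 cartilage and 490 bone rows, and over 359 shared rows for differences between tissues. The 12 comparisons used Benjamini-Hochberg adjustment over all rows and a threshold of 0.05. The spread between pools or between mice sets the p-values. The fit was tested on simulated data. The members, marker lists and the motif were chosen with earlier results of these data known. Members past the threshold were named, at most 12 a comparison by smallest p, with both arms of a hairpin and, where few passed, those of smallest p. Alternatives changed scaling, filter, prior, array weights, arrays in the fit, an array score, a replicate block and each array left out.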

Additional observations from a re-analysis of the deposited data

Results flagged for a closer look

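In bone, 3 of 32 member-by-group sets of 4 mice had 1 mouse far from the other 3, with a gap over 0.829 of the group's range. Chance flags about 1 in 20 groups. miR-370-3p had a log2 signal of 6.752 in 1 sham mouse at 1 week (number 68), and the other 3 were between 5.393 and 5.623. miR-770-3p was at 6.783 in 1 DMM mouse at 1 week (number 77), with the others between 5.385 and 5.401. miR-412-3p was at 4.356 in 1 DMM mouse at 6 weeks (number 25), with the others between 5.799 and 5.919. The 3 values came from 3 different mice. Mouse 68 also stood apart on the array score, at -9.73 against 3.56 to 10.1 in the other sham mice at 1 week. The scores of mice 77 and 25, 0.41 and -7.03, lay within their groups (0.16 to 7.41 and -8.95 to 2.59). Groups of 3 cartilage pools were not checked in this way.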

How the results depend on the processing

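The alternatives were compared by the number of members called. In cartilage at 1 week (14 of 30) it was 3 of 11 with rows under the median level left out (the 3 calls among the members still tested were kept), 0 of 6 with all 28 arrays over shared rows, 0 with the array score and 9 with the replicate block, and 1 to 12 with a pool left out. At 6 weeks (12 of 30) it was 4 of 11, 0 of 6, 0 and 2 in that order, 19 with array weights, 0 with only the 2 groups in the fit, and 0 to 16 with a pool left out. Fewer members tested and, with a pool left out, fewer arrays account for part of this by construction, and otherwise the cause was not tested. With low rows left out, 20 and 15 of all 219 miRNAs tested were called lower at 1 and 6 weeks. With all 28 arrays it was 0 and 0 of 359. Array weights called 105 of all 438 miRNAs lower at 6 weeks, and the fit of only 2 groups 5, in place of 32. The median of the members turned to 0.0194 at 1 week with all 28 arrays, a fit that holds the 6 members also measured in bone, and was -0.01 at 6 weeks. For miR-370-3p between weeks in DMM cartilage the count was 0 with the low rows left out, where this miRNA was itself left out and not tested. Its call was lost with all 28 arrays, with the array score and with the replicate block (0 each), and the count was 0 to 1 with a pool left out. Array weights gave 2 members between weeks in sham cartilage, and in bone 2 for DMM at 6 weeks, 3 between weeks in sham and 5 in DMM, and 2 for the difference between tissues at 6 weeks, where 0 had passed. Over all miRNAs these fits called 68 of 438, 54, 140 and 274 of 490, and 32 of 359. The weights had not converged in the fits with bone arrays. Same-numbered cartilage pools did not deviate together (correlations from -0.478 to 0.033), so the numbers were not taken as pairing, and the replicate block called 93 and 43 of all miRNAs at 1 and 6 weeks where 122 and 74 had been called. No member's called difference changed sign in any alternative. Scanner background was not used here, so which signals are near it is not known.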
